A study of Mus musculus with 12 samples.

Results

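The 10 genes described here belong to the endoplasmic reticulum unfolded protein response (UPR) and were followed in PSC4 mouse pancreatic stellate cells and in KPC4 mouse pancreatic cancer cells. They were chosen by name: Ern1, Atf6, Xbp1, Hspa5, Hsp90b1, Dnajb9, Sdf2l1, Pdia4, Herpud1 and Edem1. All 10 were found in both count tables, which hold 16386 genes for PSC4 and 15309 for KPC4, and all 10 passed the low-count filter in both lines. Their counts per library lay between 361, for Sdf2l1 in a KPC4 library, and 61020, for Hspa5 in a PSC4 library.

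The UPR is the answer of the endoplasmic reticulum (ER) to unfolded protein. Sensors in the ER membrane (IRE1, encoded by Ern1, ATF6 and PERK) are held by the chaperone BiP, encoded by Hspa5, and are released when unfolded protein binds BiP. IRE1 splices the Xbp1 mRNA into the form that encodes an active transcription factor, ATF6 is cut in the Golgi into one, and PERK slows translation and favours ATF4. Their targets are chaperones, disulfide isomerases and the machinery of ER-associated degradation (ERAD). Stellate cells are known for heavy secretion of matrix proteins, which load this system.

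Supernatants were passed between the lines. PSC4 recipients spent 24 h in supernatant of KPC4 donors that had been given vehicle (Control-SU) or the chemotherapeutic gemcitabine at 10 µM (Gem-SU). In both groups the donors were exposed for 6 h, washed, and then conditioned starvation medium over 14 h. For the KPC4 recipients, PSC4 donors met either supernatant over 6 h, were washed, and conditioned new starvation medium over 18 h. KPC4 cells spent 24 h in the resulting Control-PSC-SU or Gem-PSC-SU, and each of the 4 groups had 3 biological replicates. Each line stands for 1 stellate and 1 tumour line in culture, cells given the drug alone were not analysed here, and the labels do not say whether replicates were cultured on separate days.

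Library totals lay between 29559414 and 38138356 counts in PSC4 and between 26354328 and 34744150 in KPC4. The line identities were checked on markers. Of 7 tumour epithelium markers, all 7 exceeded 1 CPM (the count relative to the library's TMM-scaled total) in at least 1 KPC4 library. Cldn4 read only 0.356 CPM in Control-PSC-SU replicate 2 and 0.744 CPM in Gem-PSC-SU replicate 2. The sum of the 7 was 5810 to 7207 CPM in controls and 5834 to 7264 CPM with Gem-PSC-SU. In PSC4 only 1 of the 7 exceeded 1 CPM, and their sum was 2.76 to 5.05 CPM with Control-SU and 7.12 to 9.87 CPM with Gem-SU. Of 10 stellate cell markers 9 exceeded 1 CPM in PSC4, and their sum was 8126 to 8685 CPM with Control-SU and 2430 to 3633 CPM with Gem-SU. In KPC4, Pdgfrb, Thy1, Des, Lum and Dcn were not in the table, and Vim (2588 CPM ± 191 in controls, SD, n = 3) made up nearly all of the stellate sum, which was 2417 to 2806 CPM in controls and 1847 to 2208 CPM with Gem-PSC-SU. None of the 4 acinar markers was in either table. The sum of 5 leukocyte markers was 19.3 to 27.4 CPM in control PSC4 and 12.7 to 14.99 CPM with Gem-SU. In KPC4 it was 63.1 to 78.2 CPM in controls and 31.9 to 53.2 CPM with Gem-PSC-SU. Cd14 made up most of this sum in PSC4 and nearly all of it in KPC4, where its controls read 61.9, 77.7 and 70.7 CPM. Ptprc was in the KPC4 table only, at or under 0.99 CPM, and Adgre1 was in neither table. The sum of 3 endothelial markers stayed at or under 4.71 CPM in every library. The stellate and leukocyte sums were lower with Gem-SU and Gem-PSC-SU, and the epithelial sum was higher with Gem-SU but overlapped between the KPC4 groups. The part of the sums that moved in the results below was not tested. In bulk RNA, fewer cells of a kind and less RNA per cell cannot be told apart.

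In PSC4 the 10 genes split. With Gem-SU, Ern1, Atf6, Dnajb9, Hspa5 and Herpud1 rose and Xbp1 fell, each below an adjusted p of 0.05 by edgeR's quasi-likelihood test over all 13347 genes tested. Hsp90b1 and Pdia4 were lower in all Gem-SU libraries and narrowly missed the threshold, and Sdf2l1 and Edem1 did not pass. Thus 6 of 10 passed, against 46.3% of all genes tested. Of these 5 rose, where 24.3% of all genes did, and 1 fell, where 22.0% did. The Gem-SU libraries lay all above the controls for 6 of the 10 (29.3% of all genes) and all below for 3 (27.1%), so that 9 did not overlap, against 56.4% of all genes. The median log2 change of the 10 was 0.40, against -0.0032 over all genes tested, and the changes ran from -1.44 to 1.93.

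**Figure D1:**
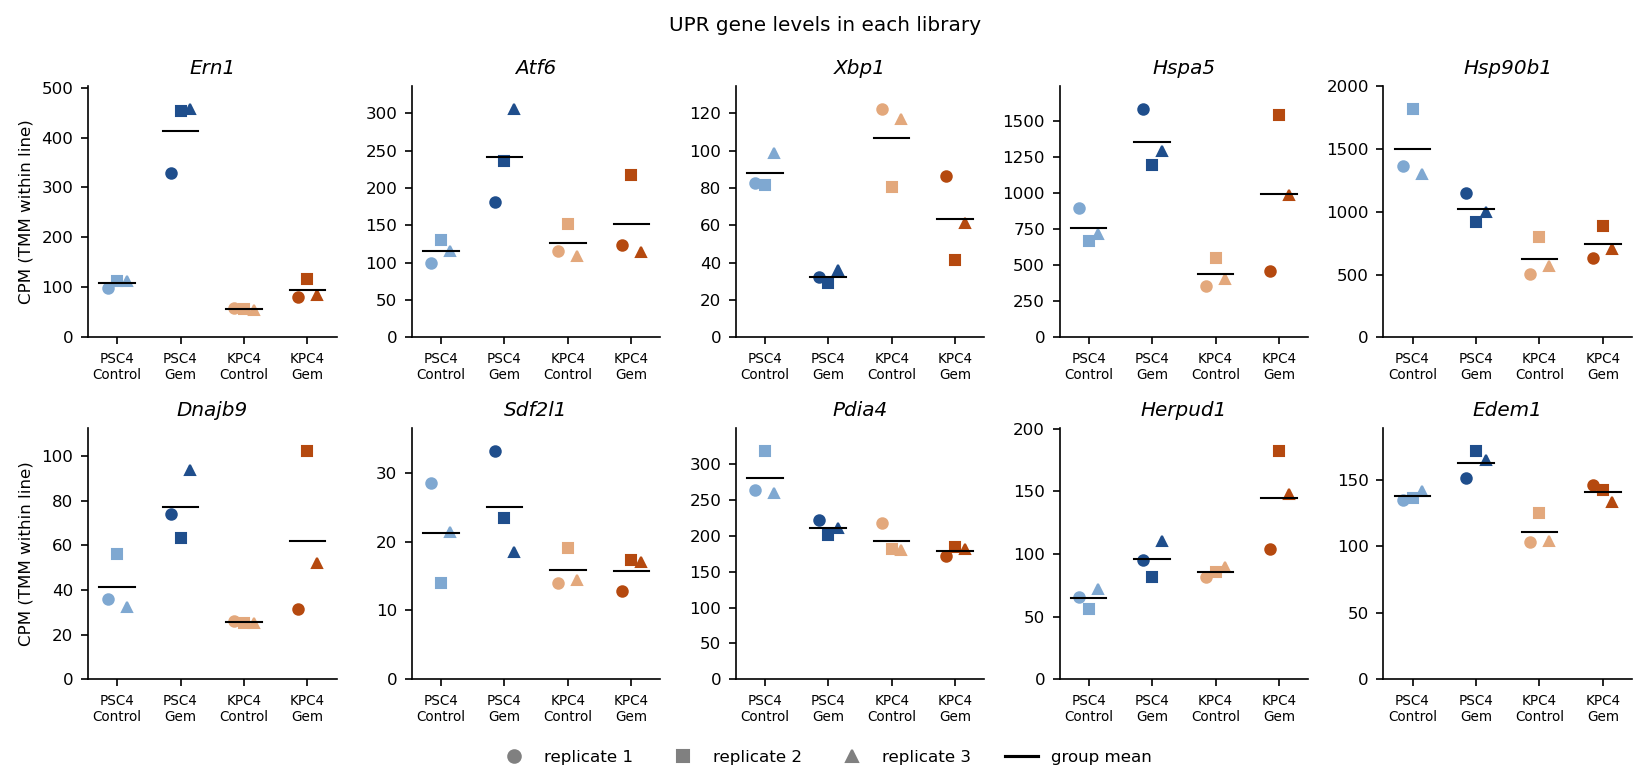
Level of each UPR gene in each library, in CPM on a linear axis from 0, by line and supernatant; symbols mark the replicate number and black lines the mean of 3 libraries. In PSC4 the groups are apart for every gene but Sdf2l1, while in KPC4 replicate 2 with Gem-PSC-SU stands highest for Hspa5, Dnajb9 and Herpud1 and replicate 1 lies nearest to the controls.

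Of the sensors, Ern1 (ENSMUSG00000020715), which encodes the kinase and endoribonuclease IRE1 alpha, changed most. It stood at 98.9, 113 and 113 CPM in replicates 1, 2 and 3 with Control-SU and at 329, 453 and 457 CPM with Gem-SU. Every Gem-SU library was thus well above every control. The change was 3.82-fold, or 1.93 on the log2 scale with a standard error of 0.18 (edgeR, adjusted p = 1.30e-04).

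Atf6 (ENSMUSG00000026663), the membrane-bound transcription factor that is freed by Golgi proteases, read 99.6, 130 and 115 CPM with Control-SU and 181, 237 and 306 CPM with Gem-SU. The groups did not overlap, and the spread with Gem-SU (SD 62.5 CPM) was larger than in controls (SD 15.2 CPM). It rose 2.10-fold, by 1.07 on the log2 scale with a standard error of 0.21 (edgeR, adjusted p = 0.0039).

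Xbp1 (ENSMUSG00000020484) encodes the transcription factor whose mRNA IRE1 splices. Its level was 82.8, 81.6 and 98.9 CPM with Control-SU and 32.0, 29.3 and 35.8 CPM with Gem-SU. It fell by 1.44 on the log2 scale with a standard error of 0.15 (edgeR, adjusted p = 2.32e-04), while Ern1 rose in the same libraries. The deposited values are counts per gene, so spliced and unspliced Xbp1 mRNA are summed and IRE1 activity was not measured.

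Among the chaperones, Hspa5 (ENSMUSG00000026864) encodes BiP, the Hsp70 of the ER lumen, and Hsp90b1 (ENSMUSG00000020048) encodes GRP94, its Hsp90. Hspa5 stood at 898, 665 and 718 CPM with Control-SU and at 1586, 1196 and 1292 CPM with Gem-SU. It was higher in all 3 Gem-SU libraries, 1.79-fold or 0.84 on the log2 scale with a standard error of 0.20 (edgeR, adjusted p = 0.0091). Hsp90b1 went the other way. It read 1366, 1821 and 1305 CPM with Control-SU and 1150, 917 and 999 CPM with Gem-SU, which differ by -0.55 on the log2 scale, with 0.20 as standard error (edgeR, adjusted p = 0.0511). The groups did not overlap, and the 95% interval of the change ran from -1.01 to -0.09.

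Both chaperone genes hold the ER stress response element (ERSE) ahead of their start sites, so their promoters are shown with that of Herpud1. ERSE was searched as CCAAT and CCACG with any 9 bases between them, its shorter variant ERSE-II as ATTGG and CCACG with any 1 base between, and the unfolded protein response element (UPRE) as TGACGTGG, on both strands, in windows of 250 bases before to 50 after each start in RefSeq's GRCm38.p6 promoter table. ERSE was found in 0.119% of the 32851 windows, ERSE-II in 0.0365% and UPRE in 0.676%. The 250 bases before the start are printed 5′ to 3′ on the gene's strand, with the fixed letters of each match in capitals. ERSE lies in Hspa5 (chr2:34771840-34772089, plus strand) and at 2 places in Hsp90b1 (chr10:86705445-86705694, minus strand), and ERSE-II in Herpud1 (chr8:94386179-94386428, plus strand).
Hspa5: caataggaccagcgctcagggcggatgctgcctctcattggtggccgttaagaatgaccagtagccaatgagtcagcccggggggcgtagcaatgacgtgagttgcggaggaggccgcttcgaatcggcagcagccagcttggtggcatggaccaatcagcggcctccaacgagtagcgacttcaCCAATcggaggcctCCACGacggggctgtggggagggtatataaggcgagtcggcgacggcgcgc
Hsp90b1: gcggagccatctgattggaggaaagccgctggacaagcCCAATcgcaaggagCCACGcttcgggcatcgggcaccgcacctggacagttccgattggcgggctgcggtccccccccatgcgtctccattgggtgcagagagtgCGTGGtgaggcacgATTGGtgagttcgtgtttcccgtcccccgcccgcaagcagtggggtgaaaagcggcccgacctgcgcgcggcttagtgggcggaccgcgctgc
Herpud1: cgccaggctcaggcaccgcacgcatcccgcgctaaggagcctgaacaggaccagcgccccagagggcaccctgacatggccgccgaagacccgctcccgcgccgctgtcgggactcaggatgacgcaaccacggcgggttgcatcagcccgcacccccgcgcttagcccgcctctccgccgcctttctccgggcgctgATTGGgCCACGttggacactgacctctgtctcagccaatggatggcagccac
The Hspa5 match covers bases -65 to -47 from the start. The Hsp90b1 matches cover -212 to -194 and, on the opposite strand, -107 to -89, and the Herpud1 match covers -52 to -42. None of these matches overlapped another motif searched. Of the 10 genes 9 were in the table; Atf6 was not matched. The windows of Xbp1, Ern1, Dnajb9, Sdf2l1, Pdia4 and Edem1 did not hold these letters, which says nothing about binding.

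An exact ERSE was found in 8 further genes of a wider list of 74 ER and PERK genes, of which 60 were in the promoter table. The matches of the 7 that were tested in both lines are shown in motif orientation, fixed letters in capitals, to show how the spacer differs.
Calr: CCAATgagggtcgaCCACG
Canx: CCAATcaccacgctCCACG
Dnajc3: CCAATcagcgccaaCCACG
Creld2: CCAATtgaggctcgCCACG
Pdia6: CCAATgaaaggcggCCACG
Ero1b: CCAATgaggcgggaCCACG
Syvn1: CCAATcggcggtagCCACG
These matches lie in GRCm38.p6 at chr8:84847075-84847093 for Calr, chr11:50325800-50325818 for Canx, chr14:118937827-118937845 for Dnajc3, chr15:88819520-88819538 for Creld2, chr12:17266491-17266509 for Pdia6, chr13:12565682-12565700 for Ero1b and chr19:6046532-6046550 for Syvn1, each before the start site. With Hspa5 and Hsp90b1 these made 9 tested genes with an ERSE. In PSC4, 1 of the 9, Hspa5, was called, where 46.3% of all genes were, and their log2 changes ran from -0.55 to 0.84 with a median of 0.06. In KPC4, 0 were called (0% of all genes). Hspa5 alone of the 9 passed with the replicate number as a block (edgeR, adjusted p = 0.0313), where 8.85% of all genes did. It alone also passed under DESeq2 (adjusted p = 0.0362), where 6.22% did. All 9 KPC4 changes were positive, as were those of 6367 of 13236 genes, and ran from 0.09 to 1.19 with a median of 0.26.

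Of the 2 cochaperones of BiP, 1 passed. Dnajb9 (ENSMUSG00000014905) encodes ERdj4, a J-domain protein that also restrains IRE1. It read 36.0, 55.9 and 32.4 CPM with Control-SU and 74.2, 63.5 and 93.6 CPM with Gem-SU, and rose by 0.90 on the log2 scale with a standard error of 0.24 (edgeR, adjusted p = 0.0149). Control replicate 2 came close to the lowest Gem-SU library. Without Control-SU replicate 3 the adjusted p was 0.0683, and over all settings tried it ran from 0.0024 to 0.0683. Sdf2l1 (ENSMUSG00000022769), which keeps BiP clients soluble together with J-domain proteins, read 28.5, 14.0 and 21.4 CPM against 33.2, 23.4 and 18.5 CPM. Its groups overlapped, and the log2 change of 0.23 had a 95% interval from -0.45 to 0.92 (edgeR, adjusted p = 0.549).

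The disulfide isomerase gene Pdia4 (ENSMUSG00000025823), known as ERp72, read 263, 318 and 259 CPM with Control-SU and 221, 202 and 210 CPM with Gem-SU. Its log2 change was -0.41, with 0.15 as standard error (edgeR, adjusted p = 0.0504), so that Pdia4 and Hsp90b1 lay just outside the threshold. DESeq2, which called 25.2% of all genes lower, called both lower, with adjusted p = 0.0193 for Pdia4 and 0.0099 for Hsp90b1. Without Gem-SU replicate 1 edgeR also called both, at 0.0407 and 0.0291. Both also passed with DESeq2's size factors, the replicate block and a fit over all 12 libraries. Over all settings the adjusted p ran up to 0.184 for Pdia4 and 0.189 for Hsp90b1.

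Of the ERAD genes, Herpud1 (ENSMUSG00000031770) encodes a membrane protein of the HRD1 ubiquitin ligase complex. It read 66.0, 56.0 and 71.8 CPM with Control-SU and 94.9, 81.8 and 110 CPM with Gem-SU. It rose by 0.57 on the log2 scale with a standard error of 0.16 (edgeR, adjusted p = 0.0209). Herpud1 lost the threshold without Control-SU replicate 2 (adjusted p = 0.0696) and without Gem-SU replicate 3 (adjusted p = 0.0771), the highest of all settings, the lowest being 0.0034. Edem1 (ENSMUSG00000030104), a lectin that passes misfolded glycoproteins to ERAD, read 135, 137 and 142 CPM against 151, 172 and 165 CPM. Its groups did not overlap, but the change of 0.24 did not pass (edgeR, adjusted p = 0.161).

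**Figure D2:**
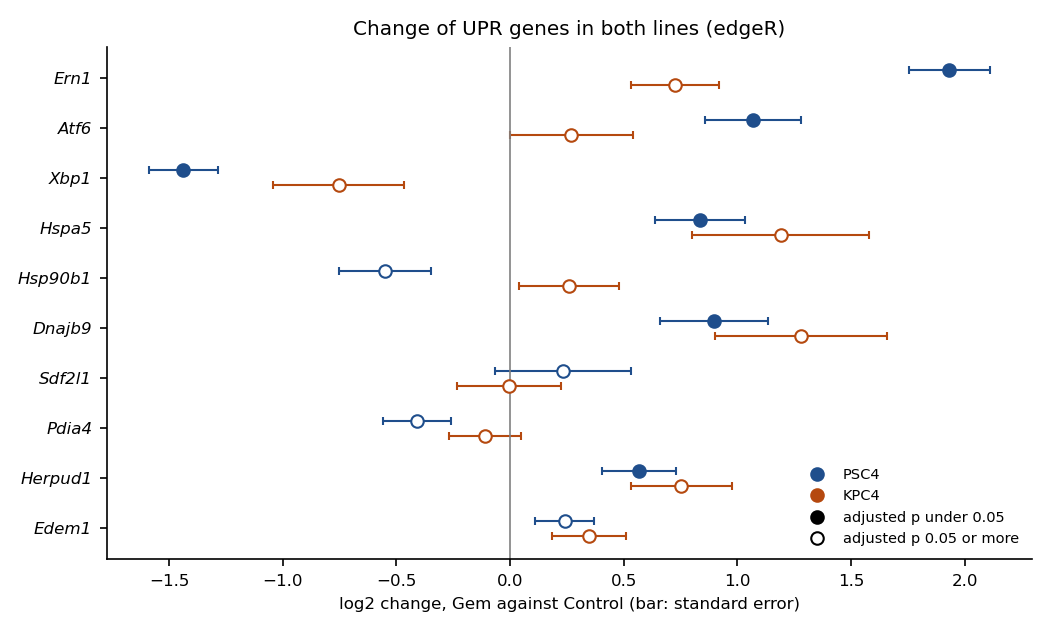
Log2 change with Gem against Control supernatant of each UPR gene, PSC4 in blue and KPC4 in orange, with the standard error as bar; filled points have an adjusted p under 0.05 (edgeR). In PSC4 Ern1 lies furthest to the right at 1.93 and Xbp1 furthest to the left at -1.44. No KPC4 point is filled in this fit, which did not pair libraries by replicate number.

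Around these 10 genes, the wider list of 74 was read by function. Of its 72 genes tested in PSC4, 14 rose and 19 fell, and 39 did not pass, in a comparison where 24.3% of all genes rose and 22.0% fell. Read against these shares, neither count stands out. The median log2 change was -0.15. Of the 14 that rose 8 were all the genes listed here as PERK arm, with a median of 2.08. The list name is a label for these genes, and PERK activity was not measured. Atf3, a stress-induced transcription factor, read 4.96, 3.38 and 3.02 CPM with Control-SU and 1192, 967 and 903 CPM with Gem-SU. It rose by 8.07 on the log2 scale (edgeR, adjusted p = 1.45e-05), Sesn2, an inhibitor of mTORC1 signalling, by 3.25, and Ppp1r15a, which encodes the GADD34 phosphatase subunit, by 2.81 on the log2 scale. Eif2ak3, which encodes PERK, rose by 0.67 (edgeR, adjusted p = 0.0041), and lost the threshold in 1 fit over all 12 libraries (adjusted p = 0.119, the highest of all settings).

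Of 14 genes of translocation into the ER and of transport to the Golgi, 0 rose and 5 fell (24.3% and 22.0% of all genes), with a median of -0.52. Sec24d, a cargo-binding COPII subunit, fell by 1.21, Spcs3, a subunit of the signal peptidase, by 1.11, and Lman1, a cargo receptor, by 0.60 on the log2 scale. Lman1 lost the threshold without Gem-SU replicate 2 (edgeR, adjusted p = 0.0574).

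The remaining groups held calls in both directions, again beside 24.3% of all genes that rose and 22.0% that fell. Of 15 further ERAD genes tested, 1 rose and 5 fell, among them Erlec1 and Os9, lectins that hand glycoproteins to HRD1, which fell by 1.01 and 1.21. Edem2, a mannosidase-like relative of Edem1, fell by 1.02. Of 11 further chaperones and cochaperones, Hyou1, the nucleotide exchange factor of BiP, rose by 0.77, while Sil1, another exchange factor of BiP, fell by 1.35 and Sdf2, the paralogue of Sdf2l1, fell by 1.49. The other 8 did not pass.

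Of 12 folding enzymes 2 rose (24.3% of all genes) and 4 fell (22.0%). Ero1a, the oxidase that recharges disulfide isomerases, rose by 1.56 and Txndc11, a thioredoxin-domain protein, by 1.00, while Fkbp2, a prolyl isomerase, fell by 1.12 on the log2 scale. Fkbp2 lost the threshold without Control-SU replicate 1 (edgeR, adjusted p = 0.0625) and without Gem-SU replicate 2 (0.0770). Of 12 genes for sensors and their processing 2 rose and 3 fell, near the same shares of all genes. Mbtps1, the Golgi protease that cuts ATF6 first, fell by 0.94 in the libraries in which Atf6 itself rose. Bak1, a pore-forming Bcl2 family protein, fell by 0.89.

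**Figure D3:**
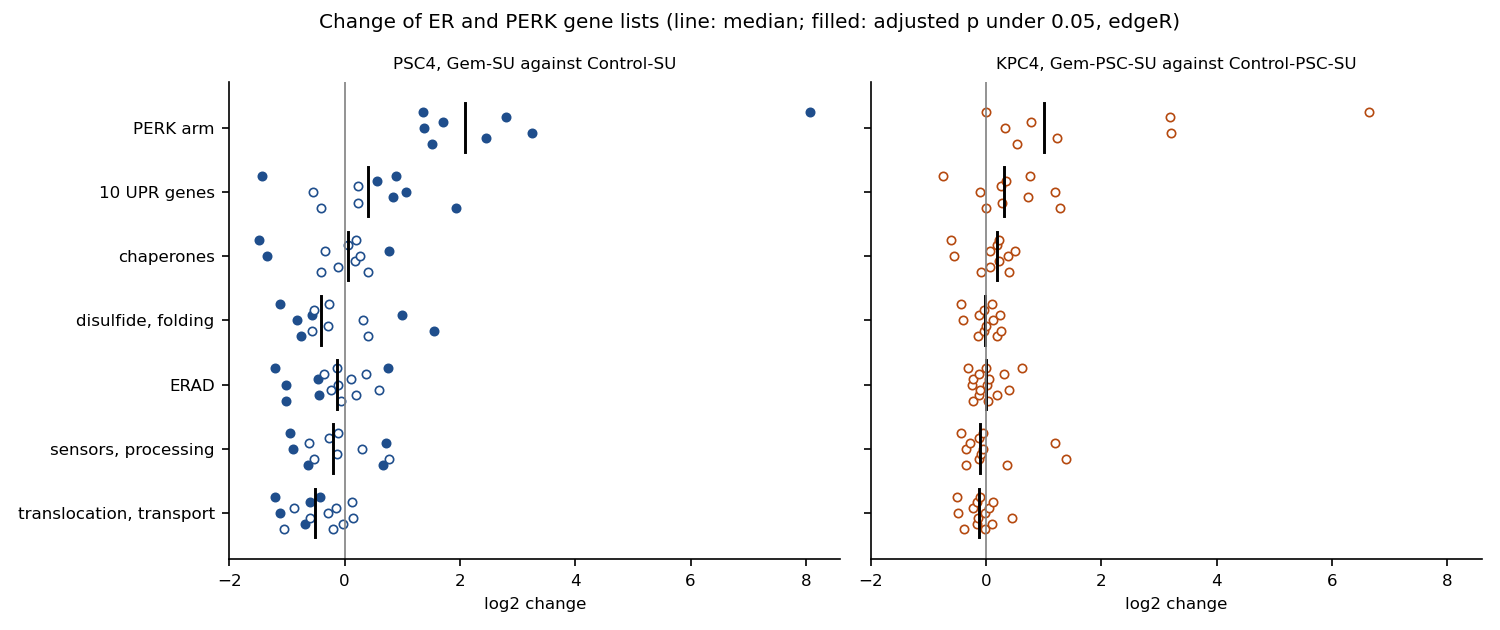
Log2 change of the genes of each ER and PERK list in PSC4 (left) and KPC4 (right); each point is a gene, filled where its adjusted p was under 0.05 (edgeR), and black lines are list medians. In PSC4 all 8 PERK arm genes lie right of 0 and are filled, with a median of 2.08, while the translocation and transport list has a median of -0.52. For KPC4 no point is filled in this fit, which did not pair libraries by replicate number.

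In KPC4, which received medium from the exposed stellate cells, 0 of 13236 genes (0%) passed edgeR's quasi-likelihood test after adjustment, and so 0 of the 10 UPR genes did. At an unadjusted p under 0.05, 4 UPR genes were higher (10.9% of all genes) and 1 was lower (6.07%). The 4 were Hspa5, Dnajb9, Herpud1 and Ern1, and the lower one was Xbp1. The edgeR fit above had no block for the replicate number, although KPC4 libraries of the same number deviated together. With such a block 1171 genes (8.85%) passed. When the replicate number entered as a block, 3 UPR genes passed as higher (6.07% of all genes), namely Hspa5, Ern1 and Herpud1, and 1 as lower (2.78%), Xbp1. DESeq2, which called 5.30% of the genes with an adjusted p higher, had Hspa5, Ern1, Dnajb9 and Herpud1 higher and no UPR gene lower. The median log2 change of the 10 genes was 0.31, against -0.0194 over all genes.

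Ern1 stood at 59.2, 57.1 and 54.8 CPM with Control-PSC-SU and at 80.7, 117 and 85.5 CPM with Gem-PSC-SU. All 3 lay above the controls, as they did for 4 of the 10 UPR genes and 11.8% of all genes. Its log2 change was 0.73 (standard error 0.19; edgeR, adjusted p = 0.149; with the block 0.71, adjusted p = 0.0335). Over all settings the adjusted p of Ern1 ran from 0.0221 to 0.526.

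Xbp1 read 122, 80.4 and 117 CPM with Control-PSC-SU and 86.6, 41.4 and 61.4 CPM with Gem-PSC-SU. The groups overlapped, with replicate 2 low in both, but within each replicate number the Gem-PSC-SU library was lower, by 0.50, 0.96 and 0.93 on the log2 scale. The change was -0.75 with a standard error of 0.29 (edgeR, adjusted p = 0.241), and -0.79 with the block (adjusted p = 0.0214, the lowest of all settings, up to 0.60). Atf6 read 116, 152 and 110 CPM against 123, 217 and 114 CPM, and its change of 0.27 turned to -0.09 without Gem-PSC-SU replicate 2.

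Hspa5 read 353, 552 and 403 CPM with Control-PSC-SU and 457, 1540 and 991 CPM with Gem-PSC-SU. Gem-PSC-SU replicate 1 lay within the control range and replicate 2 was the highest. Its log2 change was 1.19, with 0.39 as standard error (edgeR, adjusted p = 0.199), and 1.05 with the block (adjusted p = 0.0313). Within replicate numbers 1, 2 and 3 the difference was 0.37, 1.48 and 1.30. Over all settings the adjusted p ran from 0.0156, without Gem-PSC-SU replicate 1, to 0.563.

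Dnajb9 held between 25.1 and 26.0 CPM in the 3 controls and read 31.4, 102 and 52.0 CPM with Gem-PSC-SU. All 3 lay above the controls, but they spread from close to the controls to far above them (61.9 CPM ± 36.5, SD, n = 3). Its log2 change of 1.28 had 0.38 as standard error (edgeR, adjusted p = 0.167, and 0.0817 with the block). Herpud1 followed the same order among the Gem-PSC-SU libraries, with 82.0, 85.8 and 89.4 CPM in controls and 104, 182 and 148 CPM with Gem-PSC-SU. Its change was 0.75 with a standard error of 0.22 (edgeR, adjusted p = 0.167; with the block 0.72, adjusted p = 0.0398).

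The remaining 4 genes did not reach an unadjusted p of 0.05 in KPC4 (edgeR). Edem1 was 103, 125 and 104 CPM in controls and 147, 143 and 134 CPM with Gem-PSC-SU, without overlap, a log2 change of 0.35 (edgeR, adjusted p = 0.321). Hsp90b1 read 503, 796 and 565 CPM against 635, 888 and 707 CPM, Pdia4 218, 182 and 180 CPM against 171, 184 and 182 CPM, and Sdf2l1 13.9, 19.1 and 14.5 CPM against 12.9, 17.4 and 17.0 CPM. All 3 overlapped between groups, and their 95% intervals were -0.24 to 0.75, -0.47 to 0.25 and -0.53 to 0.52 on the log2 scale.

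Leaving out Gem-PSC-SU replicate 1, which lay nearest to the controls for the 5 genes named next, let 1129 KPC4 genes pass, with Hspa5, Ern1, Dnajb9 and Herpud1 higher and Xbp1 lower. Their changes without it were 1.54, 0.82, 1.60, 0.94 and -1.05. Leaving out Control-PSC-SU replicate 2 let 174 genes pass, and leaving out Gem-PSC-SU replicate 2 let 1 pass. In both cases 0 of the 10 UPR genes passed.

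Of the 72 wider-list genes tested in KPC4, 0 passed, 9 were higher (10.9% of all genes) and 3 lower (6.07%) at an unadjusted p under 0.05, and the median change was 0.0013. With the block 6 were higher (6.07% of all genes) and 1 lower (2.78%), and DESeq2 had 6 higher (5.30%) and 0 lower (0.914%). The 8 PERK arm genes had a median change of 1.00. All 8 changes were positive, but that of Asns, which encodes asparagine synthetase, was 0.0033 and turned to -0.0195 with the block. Atf3 read 5.16, 15.2 and 9.04 CPM with Control-PSC-SU and 198, 1591 and 1161 CPM with Gem-PSC-SU, a log2 change of 6.65 (edgeR, adjusted p = 0.103; with the block 6.35, adjusted p = 0.0021). Ddit3, which encodes the stress factor CHOP, differed by 3.18 and Ppp1r15a by 3.21 (edgeR, adjusted p = 0.112 each; 0.0262 and 0.0298 with the block). Eif2ak3 differed by 1.39 (edgeR, adjusted p = 0.157) and Traf2, an adaptor that binds active IRE1, by 1.20 (edgeR, adjusted p = 0.129; 0.0443 with the block). Sdf2 was lower by a log2 change of -0.60 (edgeR, adjusted p = 0.267; 0.0413 with the block).

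Whether the response differed between the lines was tested as an interaction over all 12 libraries, in which 9.85% of 13632 genes passed. Of the UPR genes 1 passed: the change of Ern1 was larger in PSC4 by 1.16 on the log2 scale with a standard error of 0.25 (edgeR, adjusted p = 0.0131). It passed in all 17 other settings run, up to an adjusted p of 0.0484. For Hsp90b1 the difference was -0.85 (edgeR, adjusted p = 0.0880), for Xbp1 -0.74 (adjusted p = 0.205) and for Atf6 0.76 (adjusted p = 0.207). A block for the number within each line let these 3 pass, at 0.0167, 0.0276 and 0.0236, as it did 21.9% of all genes. Without Gem-PSC-SU replicate 2, Xbp1 (0.0389) and Atf6 (0.0349) passed, and if Control-PSC-SU replicate 2 was left out, Hsp90b1 did (0.0382), as also under DESeq2 (0.0381). The highest adjusted p over all settings was 0.195 for Hsp90b1, 0.378 for Xbp1 and 0.422 for Atf6. For Hspa5, Dnajb9 and Herpud1 the difference was -0.39, -0.42 and -0.23, with 95% intervals of -1.39 to 0.61, -1.44 to 0.59 and -0.83 to 0.36. Line and step of the transfer go together in this design and cannot be told apart.

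Starting levels were compared as well. Between control PSC4 and control KPC4, where 42.9% of 13632 genes differed, 3 of the 10 UPR genes were higher in PSC4 (22.3% of all genes) and 0 lower (20.6%). Hsp90b1 was 2.39-fold higher (edgeR, adjusted p = 3.01e-04), Ern1 1.89-fold (adjusted p = 9.06e-04) and Pdia4 1.44-fold (adjusted p = 0.0104). Pdia4 lost the threshold without Control-SU replicate 2 (0.0787) and if Control-PSC-SU replicate 3 was left out (0.0556). Hspa5 was 1.73-fold higher without passing (edgeR, adjusted p = 0.0688), and passed under DESeq2 (0.0424; 23.3% of all genes higher). It also passed on leaving out Control-PSC-SU replicate 2 (0.0485), Gem-PSC-SU replicate 1 (0.0087) or Gem-PSC-SU replicate 2 (0.0306). Dnajb9, 1.61-fold higher without passing (0.114), passed without Gem-PSC-SU replicate 1 (0.0357) or 2 (0.0321). The lines had received different media, so line and medium cannot be told apart here.

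Levels were then compared per length. In control PSC4, Hsp90b1 led with 371 ± 69.9 CPM per kb of exon sequence (SD, n = 3), followed by Hspa5 with 180 ± 28.9 and Pdia4 with 117 ± 13.7. A lower tier ran from Herpud1 at 27.7 ± 3.42 and Xbp1 at 27.0 ± 2.97, which did not differ beyond their spread, over Edem1 at 21.4, Sdf2l1 at 19.2, Dnajb9 at 16.3 and Ern1 at 13.2 to Atf6 at 12.5 ± 1.65 CPM per kb. From Edem1 downwards, neighbours in this order did not differ beyond their spread. With Gem-SU Hspa5 stood at 321 ± 48.0 and Hsp90b1 at 253 ± 29.4 CPM per kb. Their spreads overlapped, but Hspa5 was higher in each of the 3 libraries. There it read 1586, 1196 and 1292 CPM over 4.229 kb, against 1150, 917 and 999 CPM over 4.032 kb for Hsp90b1. This difference was not tested. Ern1 rose from 13.2 ± 0.992 to 50.6 ± 8.88, and Xbp1, at 9.97 ± 1.00, was the lowest of the 10. In control KPC4 Hsp90b1, Hspa5 and Pdia4 also led, at 154 ± 38.3, 103 ± 24.5 and 80.5 ± 9.06 CPM per kb, the last 2 within their spread, and Ern1 was the lowest at 6.98 ± 0.274.

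**Figure D4:**
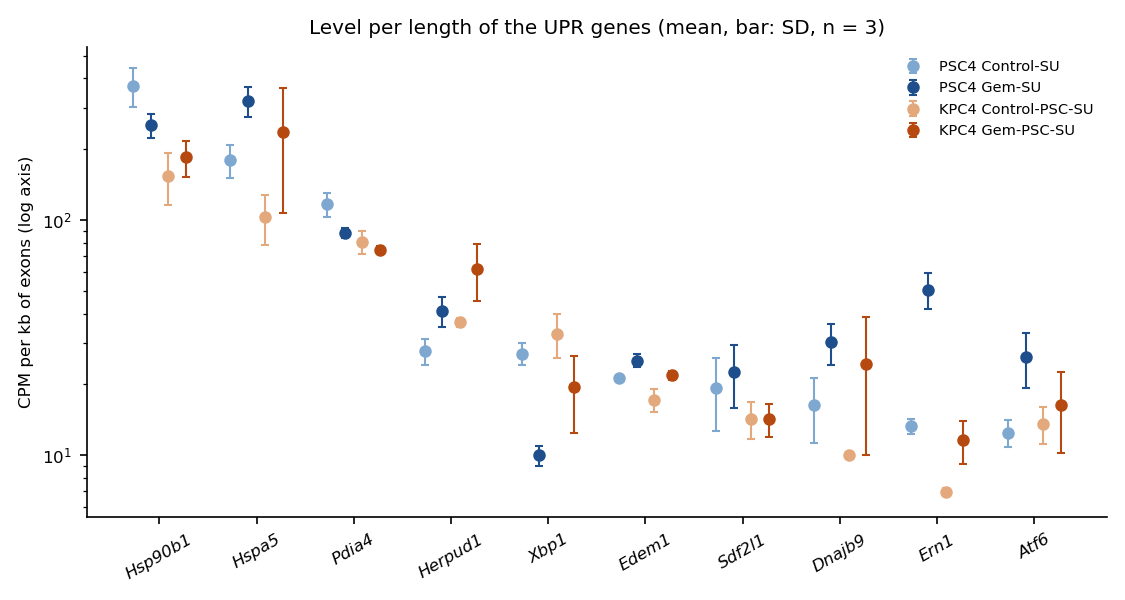
Mean level of each UPR gene in CPM per kb of exon sequence, on a log axis, in the 4 groups, with the SD of 3 libraries as bar; genes are ordered by their level in control PSC4. The means of Hsp90b1, Hspa5 and Pdia4 stand above the rest in all 4 groups, with Herpud1 (62.0 ± 16.9) within its spread of Pdia4 (74.6 ± 2.93) in KPC4 with Gem-PSC-SU, and Ern1 and Xbp1 are the genes furthest apart between the PSC4 groups.

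The profile of Hspa5 was then set beside all 8595 other genes with a mean of at least 10 CPM in both lines, as a correlation over the 12 libraries after the mean of each line was removed. The 6 genes most like it were Arf2 (r = 0.987), Tfip11 (0.986), Ufd1 (0.986), Brd2 (0.984), Rps6kb2 (0.981) and Rnps1 (0.978). Ufd1 encodes a partner of the VCP ATPase in ERAD, Arf2 a small GTPase, Brd2 a bromodomain protein, Rps6kb2 an S6 kinase, and Tfip11 and Rnps1 splicing proteins. Treatment was left in this measure and Hspa5 rose with Gem-SU, so the direction of their own changes follows from how they were chosen. Of the UPR genes Herpud1 (0.916) and Dnajb9 (0.869) were nearest to Hspa5, but only at ranks 208 and 536 of the 8595 genes. Hsp90b1 was at 0.141, and Xbp1 at -0.864 ran opposite to Hspa5. These correlations describe 12 libraries that share 2 treatments, depth and scaling, and have no test.

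The authors' deposited table for PSC4 listed 4 of the 10 genes as higher, namely Ern1, Atf6, Dnajb9 and Hspa5, and 3 as lower, namely Xbp1, Hsp90b1 and Pdia4, at an adjusted p under 0.05. Of all 15371 genes it listed, 6484 were under 0.05 in either direction. In the authors' deposited table Herpud1 had a log2 change of 0.41 (adjusted p = 0.111) and Edem1 one of 0.05 (adjusted p = 0.764), below the 0.57 and 0.24 computed here from the counts. For KPC4 the authors' deposited table listed 2 as higher, Dnajb9 (adjusted p = 0.0285) and Ern1 (adjusted p = 0.0439), with Hspa5 at 0.0523. Of the 14515 genes listed for KPC4, 713 were under 0.05 in either direction. For KPC4 Xbp1 had a log2 change of -0.71 (adjusted p = 0.199) in the authors' deposited table.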

How the data were processed

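Total RNA of 12 cultures was sequenced on an Illumina NovaSeq X Plus, per the labels' protocols. The submitters' processing notes name FastQC, Trim Galore 0.6.10, cutadapt 5.2, Salmon, R 4.5.1, DESeq2 and the build GRCm39, without roles. The authors deposited raw counts per gene and library, 1 table per line, with Ensembl identifiers. The authors also deposited, per line, a table of log2 fold changes with p-values and adjusted p-values, named as DESeq2 output; its design is not given in the sources used here.

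Symbols came from GENCODE M21, which matched 99.7% of the identifiers of each table. Exon lengths are the union of that release's exons. Promoter sequences are RefSeq's for GRCm38.p6, another build than the counts', and were joined by symbol.

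Each line was fitted by itself in edgeR 4.0.16 (R 4.3.3): filterByExpr, TMM, robust quasi-likelihood test, Benjamini-Hochberg adjustment over all genes tested, threshold 0.05. Standard errors are the log2 change divided by the root of the F statistic, and 95% intervals use its degrees of freedom. The difference between lines and the contrast of controls came from 1 fit of the 14360 genes in both tables. The labels name the libraries of a group biological replicates, so all were counted as separate samples. Replicate pairs within groups differed by at least 30.4 in chi-square per degree of freedom. That is more than counting noise, but it cannot show that the cultures were separate. P-values measure the spread between these replicates. The tests were tried on simulated data.

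The members, lists and tests were chosen with earlier results of these data known. Named were the 10 members, up to 3 genes of each wider list with the smallest p per line, and the 6 genes most like Hspa5 (log2 of CPM plus 0.5). Genes of the wider list were also named for an ERSE in their promoter window, outside this rule and with their values known.

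Same-numbered libraries were checked for shared deviations from their group means. In KPC4 the correlations were 0.428, 0.520 and 0.310. Each exceeds 0.1, the limit for pairing, so a paired reading is given beside the main KPC4 fit. Libraries of different numbers were not correlated for comparison, so these values cannot show that a shared number marks a shared batch. The main KPC4 fit and the figures have no block, since the labels do not pair the numbers. Blocked results stand beside those they change. Alternatives were DESeq2 1.42.0, its size factors, 2 other low-count filters, the replicate block, 1 fit over all 12 libraries, and leaving out each library.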

Additional observations from a re-analysis of the deposited data

Results flagged for a closer look

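Each gene here was picked out because the interaction over all 12 libraries separated its change in PSC4 from that in KPC4. For Ern1 the PSC4 change was larger by 1.16 on the log2 scale (SE 0.25; edgeR, adjusted p = 0.0131). For Ero1a it was larger by 1.65 (SE 0.38; edgeR, adjusted p = 0.0170), and Ero1a averaged 48.9 and 144 CPM in the PSC4 groups and 259 and 234 CPM in the KPC4 groups. Its Gem-PSC-SU libraries lay on both sides of the KPC4 controls, at 357, 188 and 158 CPM against 234, 283 and 260 CPM. For Sesn2 it was larger by 2.42 (SE 0.29; edgeR, adjusted p = 5.61e-04). For Spcs3 the difference was -1.01 (SE 0.21; edgeR, adjusted p = 0.0112) and for Sec24d -0.89 (SE 0.22; edgeR, adjusted p = 0.0261), both falling in PSC4 with KPC4 changes of -0.15 and -0.38. Groups of 3 libraries are too small for the test of single outlying samples.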

How the results depend on the processing

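In PSC4 the number of genes that passed lay between 4061, without Gem-SU replicate 2, and 6826 when 1 library was left out. The count of UPR genes called higher in PSC4 was 5 (24.3% of all genes), between 4 and 5 on leaving out a library, and 3 in 1 fit over all 12 libraries. There Hspa5 (adjusted p = 0.0721) and Dnajb9 (0.0576) lost the threshold. The count called lower in PSC4 moved from 1 to 3 (Hsp90b1 and Pdia4 joining Xbp1) with DESeq2's size factors, with DESeq2, with the replicate block and in 1 fit over all 12 libraries. It lay between 1 and 3 on leaving out a library. Of all genes, 22.0% were called lower in the main fit, 25.2% with DESeq2 and 26.6% with the replicate block. Shares by direction for the other settings are not given here. The median log2 change was 0.36 in the fit over all libraries and 0.33 to 0.54 on leaving out a library. In PSC4 the correlations of same-numbered libraries did not all exceed the limit for pairing (0.557, -0.0440 and 0.0973), and 7266 genes passed with the replicate block.

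In KPC4 the count of 0 became 1171 with the replicate block, 823 with DESeq2, and 610 for the fit of all libraries together, and lay between 0 and 1129 on leaving out a library. UPR genes called higher became 3 with the replicate block (6.07% of all genes), 4 with DESeq2 (5.30%), and 2 for the joint fit. On leaving out a library they were 0 to 4. Those called lower became 1 with the block (2.78% of all genes), and 0 to 1 on leaving out a library. The median change of the UPR genes was 0.22 to 0.47 on leaving out a library. The interaction count of 1343 became 2988 with the replicate block, 2148 with DESeq2, and 610 to 1993 on leaving out a library. The contrast of controls gave 5842 genes and 4954 to 6272. The cause of these moves was not tested.

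Among the results rerun, signs reversed only for values that had not passed. Sdf2l1 in KPC4 was 0.00934 with DESeq2's size factors and 0.00939 under DESeq2. On leaving out a library its change ran from -0.0914 to 0.16 in KPC4 and from -0.0285 to 0.498 in PSC4, Atf6 from -0.0859 to 0.44 in KPC4, and, between the lines, Sdf2l1 from -0.0819 to 0.458, Hspa5 from -0.758 to 0.0418, Dnajb9 from -0.751 to 0.12, and Atf6 between controls from -0.29 to 0.0270. Of the settings for the 10 genes, 103 of 120 in PSC4, 100 of 120 in KPC4, 159 of 170 for the interaction and 151 of 160 for controls kept direction and side of the threshold. Sdf2l1, the gene with the fewest counts, had at least 361 in each library.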
